A study of Mus musculus with 6 samples.

Results

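The genes described here are 10 transcripts through which the circadian clock reaches liver metabolism: the activators *Dbp*, *Tef* and *Hlf*, their antagonist *Nfil3*, the repressors *Bhlhe40*, *Bhlhe41* and *Ciart*, and the enzymes *Usp2*, *Noct* and *Wee1*. They were taken by symbol from the 56691 Ensembl genes of the deposited count table and all 10 were found. They were chosen by measured values, since the read counts of *Dbp* and *Tef* varied across the groups. Their difference between the groups is therefore a description, and where it is set against limits of p and size used for all genes, the outcome supports nothing. The livers came from 3 KPF dams, which were h*Chrebp* KO (*Chrebp* flox/flox with 1 copy of Alb-Cre, so that exon 2 of *Mlxipl* is removed where albumin is expressed), and from 3 WPF dams, which were *Chrebp* flox/flox without Cre. The sample labels name the WPF genotype WT. The floxed line was made on C57BL/6J, and dams of both groups were mated with *Chrebp* flox/flox males and kept on HFrD (10 kcal% fat, 70% fructose) after mating on Day 0 until they were sacrificed on Day 17. The age of the dams, the clock time of sampling and any fast before it are not given in the sources used here.

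In the liver clock the proteins CLOCK and BMAL1 bind a DNA element called the E-box and switch on *Per*, *Cry*, *Nr1d1*, *Nr1d2* and *Dbp*. DBP, TEF and HLF, the PAR bZIP factors, then activate genes that carry another element, the D-box, while NFIL3 represses through the same element. In mouse liver *Dbp* RNA is known to peak late in the light phase, when *Bmal1* RNA is low, and *Bmal1* and *Nfil3* RNA to peak at about the opposite time. Feeding time is a strong setter of this rhythm in liver.

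Stretches before the start of transcription are shown for the members that carried an E-box there, since this is the element of the clock on which CLOCK and BMAL1 act. RefSeq windows on GRCm38.p6 were found for 8 of the 10 genes, with 9 windows in all because *Tef* has 2 starts. None was found for *Bhlhe40* and *Wee1*. The motif CACGTG (the E-box, which reads the same on both strands) stood in the 250 bases before the start in *Ciart* (3 copies), *Bhlhe41* (1 copy) and both windows of *Tef* (1 copy each), against 6.02% of all 32851 windows of the same length. The first bases of the copies in *Ciart* lie at positions -116, -58 and -44 from the start. Capitals mark the E-box, and each sequence is written 5′ to 3′ on the strand of the gene.
Ciart, chr3:95882229-95882478, minus strand: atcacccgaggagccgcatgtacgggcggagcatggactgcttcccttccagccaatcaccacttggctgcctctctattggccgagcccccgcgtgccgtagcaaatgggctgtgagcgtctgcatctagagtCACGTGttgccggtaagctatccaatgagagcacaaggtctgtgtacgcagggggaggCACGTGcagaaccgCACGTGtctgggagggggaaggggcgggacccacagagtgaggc
Tef, first window, chr15:81802423-81802672, plus strand: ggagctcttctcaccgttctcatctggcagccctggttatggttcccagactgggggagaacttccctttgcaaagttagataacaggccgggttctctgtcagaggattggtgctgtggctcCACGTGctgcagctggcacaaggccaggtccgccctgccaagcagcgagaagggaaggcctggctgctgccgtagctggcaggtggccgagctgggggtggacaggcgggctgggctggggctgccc
Tef, second window, chr15:81811164-81811413, plus strand: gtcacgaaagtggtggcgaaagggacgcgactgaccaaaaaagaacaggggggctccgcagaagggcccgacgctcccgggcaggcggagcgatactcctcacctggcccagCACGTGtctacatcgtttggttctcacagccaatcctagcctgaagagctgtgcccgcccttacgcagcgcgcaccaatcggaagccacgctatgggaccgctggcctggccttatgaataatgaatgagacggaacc
Bhlhe41, chr6:145865421-145865670, minus strand: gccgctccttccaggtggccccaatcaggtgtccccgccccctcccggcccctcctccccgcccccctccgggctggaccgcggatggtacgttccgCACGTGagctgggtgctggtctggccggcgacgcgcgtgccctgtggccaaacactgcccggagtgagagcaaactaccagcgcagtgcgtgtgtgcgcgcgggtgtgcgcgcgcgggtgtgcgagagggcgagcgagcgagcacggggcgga

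No window of *Dbp*, *Hlf*, *Nfil3*, *Usp2* or *Noct* held CACGTG in these 250 bases, which says only that these letters are not in this stretch. The variant CACGTT (3.85% of all windows), the D-box in the forms TTATGTAA (0.819%) and TTACGTAA (0.113%), each sought on both strands, and the RORE, the element of the receptors REV-ERB and ROR (0.332%), were in none of the 9 windows. Among 14 windows of 10 core clock genes, CACGTG stood in *Per1* (-166, in the first of its windows) and *Cry1* (-60). CACGTT stood in *Cry1*, *Cry2* and *Nr1d1*. *Per3*, a period gene, held TTATGTAA 2 times, at -205 and -158 from its start. This stretch is shown because the D-box is where DBP, TEF, HLF and NFIL3 bind, with the D-boxes in capitals.
Per3, chr4:151044666-151044915, minus strand: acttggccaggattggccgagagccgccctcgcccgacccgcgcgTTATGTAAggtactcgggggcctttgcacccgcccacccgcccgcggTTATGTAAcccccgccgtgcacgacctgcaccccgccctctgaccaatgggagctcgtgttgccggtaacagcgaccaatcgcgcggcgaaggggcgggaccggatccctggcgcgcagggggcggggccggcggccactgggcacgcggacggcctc

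The libraries held between 10694496 and 14496630 counted reads, with the 3 KPF libraries the smallest. Reads were scaled to CPM with edgeR's TMM factors, which lay between 0.8907 and 1.178. *Mlxipl*, the deleted gene, was at 179 to 849 CPM in KPF and 879 to 1261 CPM in WPF (log2 fold change -0.84, SE 0.53, adjusted p = 0.584 in edgeR's quasi-likelihood test), counted over the whole gene and not only over exon 2. KPF replicate 2 stood apart by striated muscle genes: the summed level of *Acta1*, *Ckm*, *Myh1* and *Tnnt3* was 2634 CPM there and 1.33 to 10.9 CPM in the other 5 libraries. All 4 were called higher in KPF, beside 5.8% of all tested genes, and these calls rest on KPF replicate 2. In KPF replicates 1 and 3 the sum was 1.33 and 2.59 CPM, below the 2.93 to 10.9 CPM of WPF. All 6 hepatocyte markers were detected in every library, with a summed level of 79125 to 104708 CPM in KPF and 102395 to 170741 CPM in WPF. Of 6 stellate cell and fibroblast markers, 3 were called higher in KPF (*Reln*, *Col1a1* and *Col3a1*), beside 5.8% of all tested genes. *Dcn* (log2 fold change 0.79), *Pdgfrb* (0.55) and *Lrat* (-0.35) were not called. The summed level of the 6 markers was 84.2 to 111 CPM in WPF and 147 to 282 CPM in KPF. The 5 sinusoidal endothelial markers summed to 70.6 to 71.6 CPM in KPF and 70.9 to 85.8 CPM in WPF. The 5 Kupffer cell markers summed to 114 to 171 CPM in KPF and 126 to 223 CPM in WPF. Neither list gave a call. In bulk RNA, fewer cells of a type and less RNA per cell cannot be told apart.

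*Dbp* (ENSMUSG00000059824, chromosome 7, 45354512 to 45359627, plus strand, in the table's coordinates, for which the processing notes list GRCm39) had the widest spread of the 10 genes. KPF replicates 1, 2 and 3 held 38.3, 205 and 5.86 CPM, whereas WPF replicates 2, 3 and 4 held 1.99, 1.55 and 285 CPM. WPF replicate 4 was thus the highest of all libraries and the other 2 WPF libraries the lowest. The highest library exceeded the lowest 184-fold within WPF and 35.1-fold within KPF. These values rest on 22 to 4860 reads per library. The mean was 83.2 ± 107 CPM for KPF against 96.1 ± 163 CPM for WPF (SD, n = 3 dams per group), with a log2 fold change of -0.21 (SE 1.84). Without WPF replicate 4 the log2 fold change was 5.55, and without KPF replicate 2, the library with muscle genes, it was -2.12, so that single dams set its size and sign. With all libraries kept, limma gave *Dbp* 1.07 on log2(FPKM + 1) and 1.66 on log2(FPKM + 0.1). The sign therefore also depended on the method.

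*Tef* (ENSMUSG00000022389, chromosome 15, 81686622 to 81711064, plus strand) showed the same division of the libraries. KPF replicates 1 to 3 were at 219, 374 and 58.2 CPM, WPF replicates 2 to 4 at 39.2, 34.2 and 329 CPM. As with *Dbp*, KPF replicates 1 and 2 and WPF replicate 4 were high and the other 3 libraries low, with a smaller range of 9.61-fold within WPF and 6.42-fold within KPF. The log2 fold change was 0.69 (SE 0.97), from 0.05 without KPF replicate 2 to 2.56 without WPF replicate 4. *Hlf* (ENSMUSG00000003949, chromosome 11, 90227362 to 90281721, minus strand), the third PAR bZIP gene, moved little. It stood at 15.4, 23.4 and 12.8 CPM in KPF and 13.8, 13.1 and 17.3 CPM in WPF, and its 3 highest libraries were again KPF replicates 1 and 2 and WPF replicate 4. The log2 fold change of *Hlf* was 0.22 (SE 0.27), and -0.07 without KPF replicate 2.

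Per length of RNA, the make-up of the PAR bZIP group differed between libraries. *Dbp* was at 112.01 FPKM in WPF replicate 4 and 68.27 FPKM in KPF replicate 2, where it made up 68.2% and 57.4% of the summed FPKM of *Dbp*, *Tef* and *Hlf*. In KPF replicate 1 its share was 29.8%, in KPF replicate 3 17.4%, and in WPF replicates 2 and 3 8.59% and 7.57%. *Tef* was the leading one of the 3 in those 4 libraries, with 63.8% to 65.7%. The summed level ran from 6.87 FPKM in WPF replicate 2 to 164 FPKM in WPF replicate 4.

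*Nfil3* (ENSMUSG00000056749, chromosome 13, 53121245 to 53135109, minus strand), the repressor of D-box genes, ran the other way. KPF replicates 1 to 3 had 6.00, 13.1 and 26.6 CPM of it, WPF replicates 2 to 4 had 23.2, 25.9 and 6.03 CPM. The 3 libraries lowest in *Dbp* were the 3 highest in *Nfil3*. The log2 fold change was -0.27 (SE 0.64), and it lay between -0.94 and 0.12 with each library left out in turn.

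Ratios of reads within a library do not depend on how libraries are scaled. There were 16.1, 194 and 0.223 *Dbp* reads per *Bmal1* read in KPF replicates 1, 2 and 3, and 0.095, 0.0501 and 194 in WPF replicates 2, 3 and 4. The exact (Clopper-Pearson) 95% intervals, which cover counting error only, were 10.7 to 25.1 for KPF replicate 1 and 0.166 to 0.296 for KPF replicate 3, so that these dams of one group lay on opposite sides of 1. Within WPF the intervals were 0.0311 to 0.0768 for replicate 3 and 132 to 301 for replicate 4. Against *Nfil3* the ratio of *Dbp* reads was 6.38, 15.7 and 0.22 in KPF and 0.0858, 0.0598 and 47.2 in WPF. Both ratios put 2 KPF libraries and 1 WPF library above 1, and 1 KPF library and 2 WPF libraries below.

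**Figure D1:**
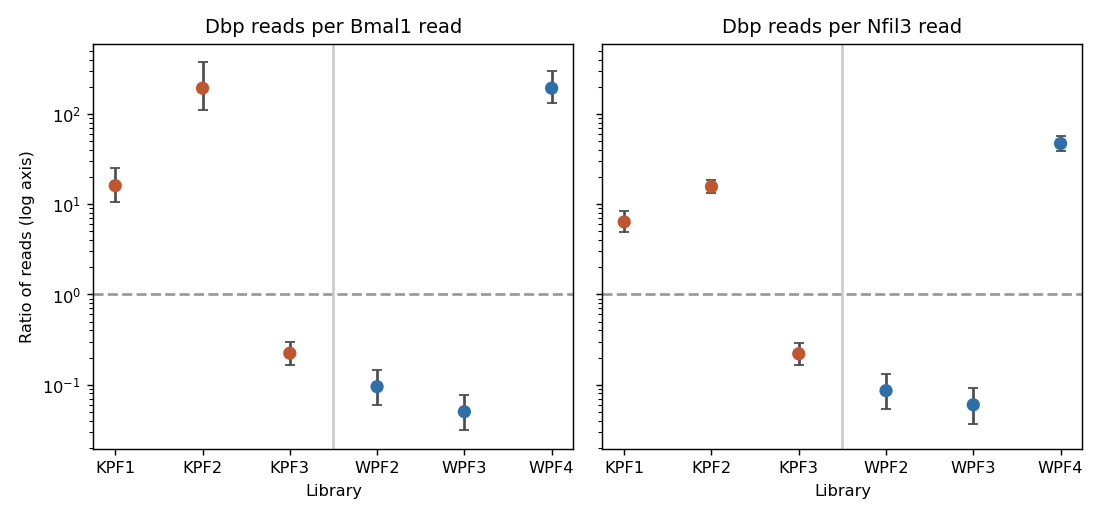
Reads of *Dbp* per read of *Bmal1* (left) and per read of *Nfil3* (right) in each library on a log axis, KPF in orange and WPF in blue, with exact 95% intervals of counting error as bars and a dashed line at a ratio of 1. KPF replicates 1 and 2 and WPF replicate 4 lie above 1 in both panels, and the other 3 libraries lie below.

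*Ciart* (ENSMUSG00000038550, chromosome 3, 95785815 to 95789563, minus strand), whose product represses CLOCK and BMAL1, followed *Dbp*. KPF replicates 1 to 3 gave 6.66, 51.0 and 0.673 CPM, WPF replicates 2 to 4 gave 3.11, 1.41 and 34.8 CPM, so that the groups overlapped. The lowest value rests on 7 reads. The log2 fold change was 0.56 (SE 1.45), 3.11 without WPF replicate 4 and -1.84 without KPF replicate 2.

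*Bhlhe40* (ENSMUSG00000030103, chromosome 6, 108637590 to 108643886, plus strand) encodes DEC1, a repressor that competes for E-boxes. Like *Noct*, described below, and no other member, it divided the libraries by group. The KPF dams had 11.9, 16.9 and 11 CPM and the WPF dams 26.2, 33.2 and 32.6 CPM, without overlap. The means were 13.3 ± 3.16 CPM and 30.7 ± 3.88 CPM (SD, n = 3 dams per group), a log2 fold change of -1.21 (SE 0.23). It lay between -1.42 and -1.09 over the 14 alternatives of processing and of libraries left out. *Bhlhe41* (ENSMUSG00000030256, chromosome 6, 145803969 to 145811284, minus strand) encodes the related repressor DEC2 and was sparse. It had 22, 98 and 35 reads in KPF and 19, 17 and 303 reads in WPF, or 2.09, 8.67 and 3.36 CPM and 1.64, 1.19 and 17.7 CPM. WPF replicate 4 and KPF replicate 2 were the highest, as for *Dbp*, but KPF replicate 3 stood above KPF replicate 1. The log2 fold change of *Bhlhe41* was -0.55 (SE 1.02), 1.72 without WPF replicate 4 and -1.34 without KPF replicate 2.

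*Usp2* (ENSMUSG00000032010, chromosome 9, 43978318 to 44006924, plus strand), a deubiquitinating enzyme, was counted at 44.7, 121 and 14.2 CPM in KPF and 5.96, 5.69 and 92.6 CPM in WPF. The division was again that of *Dbp*, 16.3-fold within WPF and 8.53-fold within KPF. Its log2 fold change was 0.79 (SE 1.16), 3.36 without WPF replicate 4 and -0.24 without KPF replicate 2. *Noct* (ENSMUSG00000023087, chromosome 3, 51131868 to 51159065, plus strand) encodes nocturnin, a phosphatase of NADP(H). The KPF dams had 131, 208 and 181 CPM and the WPF dams 25.8, 58.6 and 117 CPM, again without overlap. The gap between the groups was small, since WPF replicate 4 was close to KPF replicate 1. The means were 173 ± 38.8 CPM and 67.0 ± 46.1 CPM (SD, n = 3 dams per group), a log2 fold change of 1.37 (SE 0.51), from 0.98 without WPF replicate 2 to 2.03 without WPF replicate 4. *Wee1* (ENSMUSG00000031016, chromosome 7, 109721253 to 109742493, plus strand), a kinase that holds back entry into mitosis, had only 26, 47 and 27 reads in KPF and 6, 13 and 139 reads in WPF. In CPM these were 2.48, 4.16 and 2.59 against 0.519, 0.913 and 8.14, with a log2 fold change of -0.07 (SE 0.92) that was 2.07 without WPF replicate 4.

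**Figure D2:**
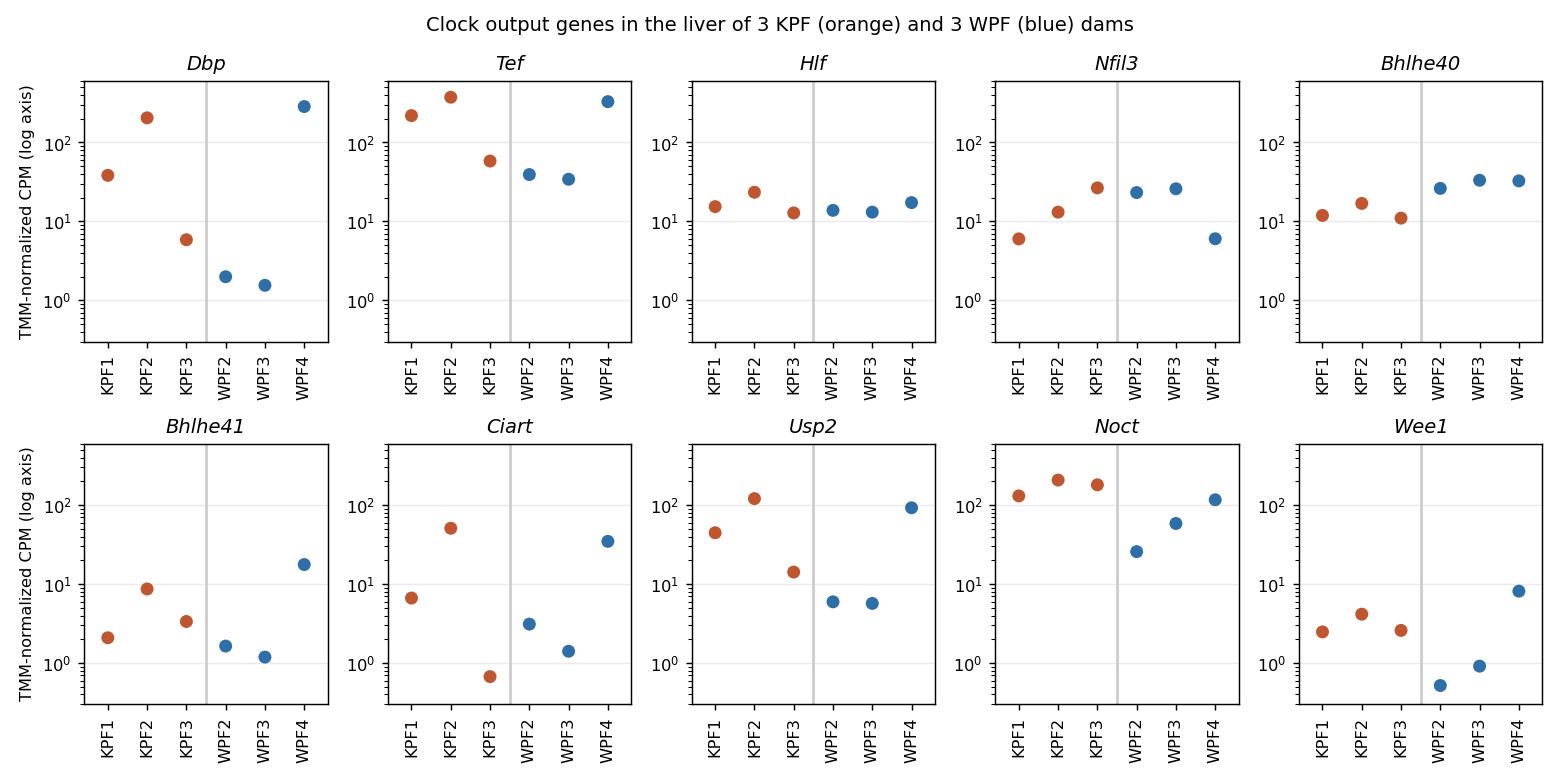
TMM-normalized CPM of the 10 clock output genes in each library on a common log axis, with KPF in orange and WPF in blue and 1 point for each dam. *Dbp* runs from 1.55 to 285 CPM, while *Bhlhe40* and *Noct* are the genes whose groups do not overlap.

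Over all 6 libraries the mean level per length was 32.6 FPKM for *Dbp*, 23.3 for *Tef*, 11.3 for *Noct*, 10.3 for *Usp2*, 8.12 for *Nfil3*, 7.6 for *Ciart*, 4.82 for *Bhlhe40* and 2.42 for *Hlf*. *Wee1* and *Bhlhe41*, at 0.972 and 0.927 FPKM, were below the minimum of 1 FPKM and were fitted but not counted among the tested genes. The order is that of means only, since the libraries of most of these genes overlap widely.

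Comparison of KPF with WPF asked which liver genes depend on hepatocyte ChREBP under HFrD. A gene was called at an unadjusted p under 0.05 in edgeR's quasi-likelihood test and a change of at least 1.5-fold, and this held for 9.78% of the 10866 tested genes, 5.8% higher and 3.98% lower in KPF. No gene had an adjusted p under 0.05 (1174 had an unadjusted p under 0.05, and DESeq2 gave 156 genes with an adjusted p under 0.05). With library totals in place of TMM the called genes split into 370 higher and 727 lower, against 630 and 433 with TMM, and the median of all genes moved from 0.02 to -0.12. Of the clock output genes, 8 passed the minimum and 2 passed both limits, *Noct* as higher and *Bhlhe40* as lower in KPF, and since the members were chosen on this contrast nothing is read from that count. The same 2 of 8 were the genes without overlap between the groups, against 15.7% of all tested genes, of which 7.54% had all KPF libraries higher and 8.17% all KPF libraries lower. With library totals, and without KPF replicate 2, KPF replicate 3, WPF replicate 2 or WPF replicate 3, *Bhlhe40* alone passed the limits. The median log2 fold change of the 8 genes was 0.39, beside 0.02 for all tested genes, and 2.29 without WPF replicate 4.

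**Figure D3:**
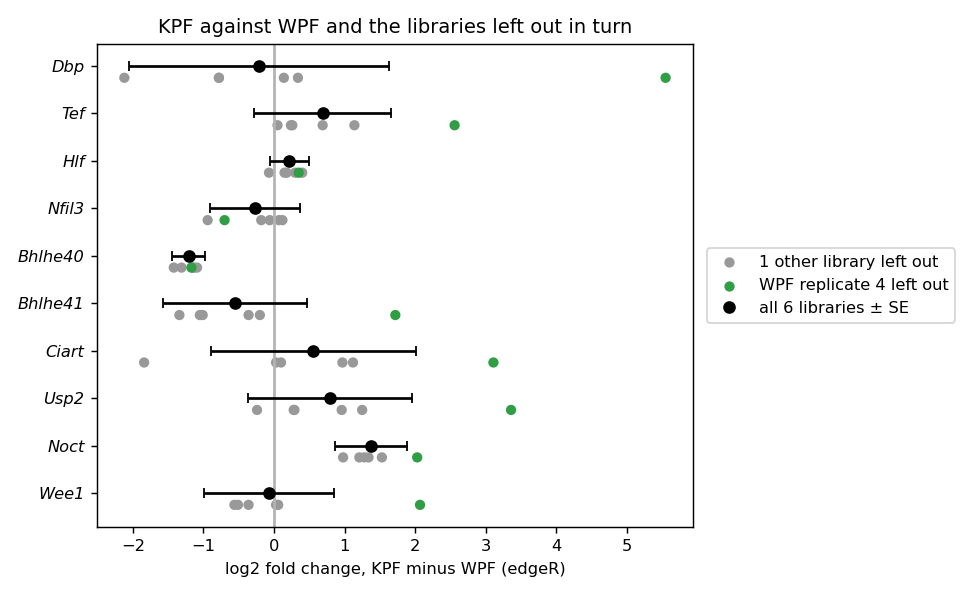
log2 fold change (KPF minus WPF, edgeR) of each clock output gene with its standard error in black, and the values with 1 library left out in turn below it, green where WPF replicate 4 was left out. *Dbp* moves from -0.21 to 5.55 without WPF replicate 4, whereas *Bhlhe40* stays between -1.42 and -1.09.

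The spread between dams of a group was wide for most of the members. The standard deviation of log2 CPM within groups was 3.46 for *Dbp*, 2.67 for *Ciart*, 1.95 for *Usp2*, 1.62 for *Tef*, 1.11 for *Nfil3* and 0.81 for *Noct*, against a median of 0.36 and a 99th percentile of 2.25 over all tested genes. Ranked by this spread among 10866 genes, *Dbp* was number 26, *Ciart* 61, *Usp2* 154 and *Tef* 212. For *Dbp* and *Tef* these ranks restate why the genes were chosen. By the range within WPF alone, which the muscle genes of KPF replicate 2 do not enter, *Dbp* was number 2 and *Ciart* number 31. *Hlf* and *Bhlhe40*, at 0.35 and 0.26, were close to or below the median.

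**Figure D4:**
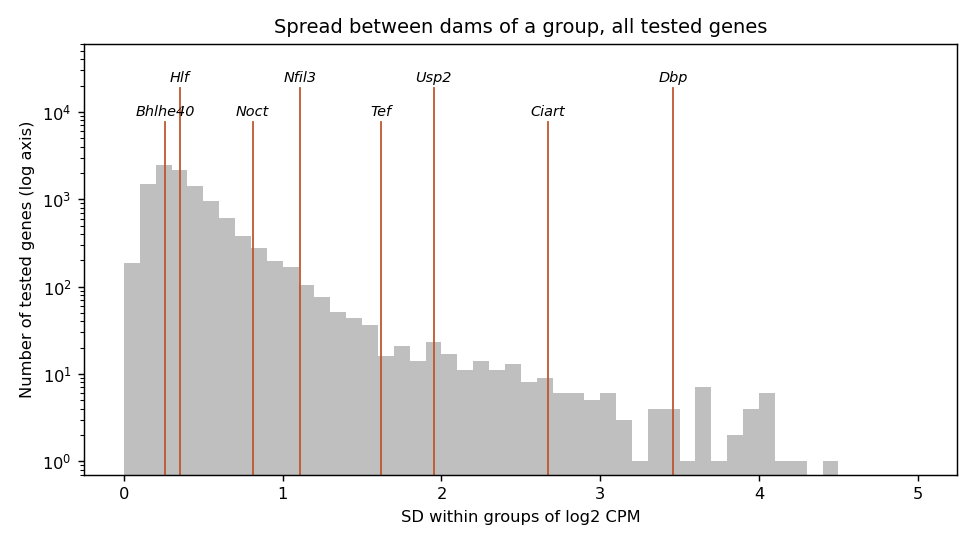
Number of tested genes (log axis) by the standard deviation of log2 CPM within groups, with the 8 tested clock output genes as orange lines. *Dbp* at 3.46 and *Ciart* at 2.67 lie in the far tail, and *Hlf* at 0.35 and *Bhlhe40* at 0.26 lie in the bulk of the 10866 genes.

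The division seen for *Dbp* was shared by much of the core clock. KPF replicates 1 and 2 and WPF replicate 4 were the 3 highest libraries for *Dbp*, which defines the division, and for *Tef*, *Hlf*, *Ciart* and *Usp2*, 4 of the other 9 members, and the 3 lowest for *Nfil3*. *Tef* was chosen for its variation too. Of 12 core clock genes, 5 had the same 3 highest libraries (*Per1*, *Per3*, *Cry2*, *Nr1d1* and *Nr1d2*) and 4 had them lowest (*Bmal1*, *Clock*, *Npas2* and *Cry1*). Over all tested genes these shares were 5.58% and 6.47%. Without KPF replicate 2 the numbers were the same, with 5 members, *Dbp* included, and 5 core clock genes one way and 1 and 4 the other way placing the remaining 5 libraries in this way, beside 8.41% and 9.9% of all tested genes. With library totals 6 members, *Dbp* included, and 5 core clock genes did so one way and 1 and 3 the other way. The place of *Cry1* was close to a tie, with 7.97 CPM in KPF replicate 3 and 7.87 CPM in KPF replicate 2. By deposited FPKM their order was reversed, at 2.15 and 2.34. As these genes are bound in one feedback circuit, they are not independent of each other.

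*Bmal1*, the activator of the clock, had 2.38, 1.06 and 26.2 CPM in the KPF replicates 1 to 3 against 20.9, 30.8 and 1.46 CPM in the WPF replicates 2 to 4, the mirror of *Dbp*. *Npas2*, which can stand in for *Clock*, had 9, 1 and 92 reads in KPF and 121, 323 and 7 reads in WPF. *Nr1d1*, the repressor of *Bmal1*, stood at 30.9, 79.0 and 17.8 CPM in KPF and 12.6, 4.92 and 149 CPM in WPF. None of the 12 core clock genes was called between the groups by edgeR (smallest unadjusted p = 0.258, adjusted p from 0.678 to 0.993) or by DESeq2, and their median log2 fold change was -0.02. This count rested on single dams, since 4 were called without WPF replicate 4 (*Per3*, *Cry1*, *Nr1d1* and *Nr1d2*) and 3 without KPF replicate 3 (*Bmal1*, *Clock* and *Npas2*), beside 10.7% and 14.9% of all tested genes. *Per2*, a period gene, did not follow the division, as WPF replicate 3 was its second highest library at 107 CPM. *Rora*, a nuclear receptor, was highest in KPF replicate 3 at 30.1 CPM.

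**Figure D5:**
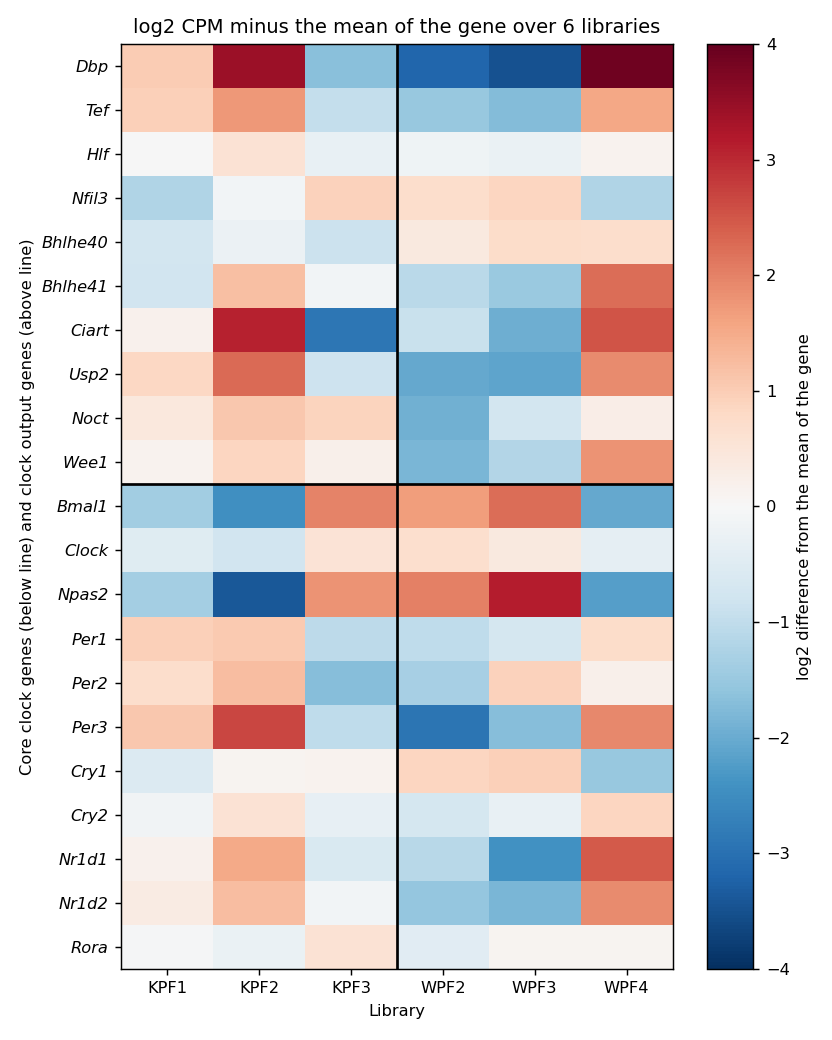
log2 CPM of each gene minus its mean over the 6 libraries, red above and blue below, for the 10 clock output genes (upper block) and the core clock genes reported here (lower block), with KPF left and WPF right of the line. WPF replicate 4 has the colours of KPF replicates 1 and 2 for *Dbp*, *Tef*, *Ciart*, *Usp2*, *Nr1d1* and, in reverse, *Bmal1* and *Npas2*, and KPF replicate 3 has those of WPF replicates 2 and 3. KPF replicate 1 is pale for *Ciart* and *Nr1d1*, where it lies close to the mean of the gene.

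The enzymes that modify clock proteins varied less. Of 9 such genes 8 were tested, with a median spread within groups of 0.32 on the log2 scale, and 1 was called: *Sirt1*, a deacetylase, was lower in KPF at 5.90, 9.02 and 9.70 CPM against 10.7, 14.2 and 15.3 CPM (log2 fold change -0.71, SE 0.27, unadjusted p = 0.0338 and adjusted p = 0.438 in edgeR's test), a call that held in 9 of 14 alternatives. Over all tested genes 9.78% were called. *Fbxl21* and *Fbxw7*, of ubiquitin ligases, had the highest log2 fold changes of the tested genes of this list at 0.51 and 0.31, without calls, and that of *Fbxl21* was -0.07 without KPF replicate 2.

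Genes with the levels most like *Dbp* over the 6 libraries were sought among 4682 genes with a symbol and a mean of at least 5 FPKM. By Pearson's r of log2 CPM the nearest were *Kcnk5* (0.993), *Pcsk4* (0.992), *Nfkbia* (0.987), *Fam214b* (0.984) and *Ces1d* (0.984), a carboxylesterase that ran from 93.2 CPM in WPF replicate 3 to 660 CPM in KPF replicate 2. Among the most opposite were *U2af1* (-0.99), *Cyp8b1* (-0.986), *Tmie* (-0.985) and *Farsa* (-0.981). *Cyp8b1*, which makes cholic acid, was at 25.2, 9.2 and 42.3 CPM in KPF and 96.5, 72.0 and 9.14 CPM in WPF. For *Tef* the nearest were *Snord118*, *Vav2*, *Kcnk5*, *Wwc1* and *Fam214b* (0.977 to 0.983), and the most opposite *U2af1*, *Ppard*, *Slc30a10*, *Nectin1* and *Ppp2ca* (-0.997 to -0.978). These are descriptions over 6 libraries that fall on either side of a gap in *Dbp*, and without the 2 libraries farthest from the median, WPF replicate 4 and KPF replicate 2, r of the genes named for *Dbp* was between 0.949 and 0.995 or between -0.998 and -0.946. As the genes were picked for their r over these same libraries, this is no separate check. For *Dbp*, 20 of the 4682 genes had r above 0.95 and 16 had r below -0.95.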

How the data were processed

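Liver RNA of 3 KPF and 3 WPF dams was sequenced as poly(A) libraries with paired reads of 150 bases. The authors deposited raw read counts per Ensembl gene and FPKM values, which equal the counts divided by the exonic length and the library total to within 0.005. The submitters' processing notes list cutadapt 1.9.1, HISAT2 2.2.1, HTSeq 0.6.1, DESeq2 and GRCm39, and whether strand was used in counting is not given in the sources used here. Symbols came from GENCODE M21 (52073 of 56691 IDs matched), and promoter windows from RefSeq on GRCm38.p6, whose coordinates were not combined with those of the table.

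Counts were tested with edgeR 4.0.16 in R 4.3.3 (TMM, quasi-likelihood test, Benjamini-Hochberg adjustment) over the 10866 genes whose mean FPKM reached 1, and log2 CPM used a prior count of 2. Listed genes below this minimum were fitted but have no adjusted p. DESeq2 1.42.0, limma 3.58.1 on log2(FPKM + 1) or log2(FPKM + 0.1), other scalings and filters, each library left out and the replicate number as a block were alternatives. All tests were tried on simulated data, in which each gene varied independently of the others. The simulated data held no division of libraries shared by many genes, so they say nothing of the tests under such a division. No pair of libraries of a group was alike within sampling noise (chi-square per gene of 49.1 or more). With 10694496 to 14496630 reads per library, genes with few reads are measured with wide counting error.

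The members and gene lists were chosen with earlier results of these data known. Named were the members, *Mlxipl*, 12 core clock genes, of each other list the 2 highest, the 2 lowest and any called gene, and the 5 genes most like and most unlike *Dbp* and *Tef*, some of which are not reported here. Unadjusted p values rest on the model and set the difference between the groups against the spread between these dams.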

Additional observations from a re-analysis of the deposited data

How the results depend on the processing

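Over 14 alternatives, 130 of 140 values of the log2 fold change of the 10 clock output genes moved by less than the gene's own SD within groups, and the 10 others came from leaving out WPF replicate 4 or from the replicate block. This limit is wide, at 3.46 for *Dbp*, and changes of sign can lie within it. *Dbp* at 1.66 with limma on log2(FPKM + 0.1), against -0.21, counted as such a small move. The count is therefore no measure of stable values. Counts of clock output genes called are descriptions, as these genes were chosen on this contrast. Scaling by library totals called 370 genes higher, 727 lower and 1 clock output gene. DESeq2 gave 156 genes with an adjusted p under 0.05. Limma on log2(FPKM + 1) called 238 genes higher, and limma on log2(FPKM + 0.1) called 257 higher and 679 lower, with 1 at an adjusted p under 0.05. Without a filter, 1576 genes were called higher and 910 lower, and 286 had an adjusted p under 0.05, where more genes were tested (26984). Leaving out each library in turn gave 324 to 907 genes called higher, 247 to 711 lower and 0 to 5 with an adjusted p under 0.05. In the same runs 1 to 5 clock output genes and 0 to 4 core clock genes were called, beside 5.25% to 14.9% of all tested genes (the 5 and the 4 without WPF replicate 4, beside 10.7%), the median log2 fold change of the clock output genes was -0.21 to 2.29, and the log2 fold change of *Nr1d1* was -1.19 to 2.28, against -0.39 with all libraries, the highest without WPF replicate 4. With all libraries kept, limma gave *Nr1d1* the other sign, 0.43 on log2(FPKM + 1) and 0.6 on log2(FPKM + 0.1). Why these values moved was not tested. The orders of libraries under other scales and without KPF replicate 2 were looked at after the data were seen. For *Ciart*, *Wee1* and *Npas2*, with as few as 7, 6 and 1 reads in a library, depth limits the precision.

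Replicates 2 and 3 occur in both groups but are different dams, and their deviations from the group means correlated at 0.059 and -0.037. The labels do not say what the number means. Whether dams of the same number shared a batch cannot be told from these correlations. With the replicate block, which rests on replicates 2 and 3 of each group, 5 clock output genes and 4 core clock genes were called, beside 11.3% of all tested genes, the median log2 fold change of the clock output genes was 2.12, and *Nr1d1* turned to 2.26. The blocked comparison leaves out what replicate 1 of KPF and replicate 4 of WPF say of the difference.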

Other observations

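Genes that PAR bZIP factors are known to act on in liver were looked at as well. Of 9 such genes 8 were tested and 2 were called by edgeR's quasi-likelihood test, against 9.78% of all tested genes. *Cyp2a4*, a steroid and drug hydroxylase, was lower in every KPF library (391, 418 and 571 CPM against 1013, 988 and 1287 CPM, log2 fold change -1.25, SE 0.28, adjusted p = 0.413 in edgeR's test) and was called in 14 of 14 alternatives. Its close relative *Cyp2a5* can share reads with it, so the split between them is uncertain. *Alas1*, the first enzyme of heme synthesis, was called higher in KPF (173, 710 and 64.0 CPM against 62.8, 56.0 and 122 CPM, log2 fold change 1.98, SE 0.81, adjusted p = 0.453 in edgeR's test), in 7 of 14 alternatives and not without KPF replicate 2. *Nr1i3*, the receptor CAR, had 545, 950 and 118 CPM in KPF and 219, 89.1 and 267 CPM in WPF (log2 fold change 1.49, SE 0.72). *Nr1i3* was not called, though it was with DESeq2, without a filter and without KPF replicate 3. *Cyp2c37* had a log2 fold change of 0.07, from -0.39 to 0.51 with each library left out. Of the tested genes of this list, only *Alas1* and *Nr1i3* had KPF replicates 1 and 2 and WPF replicate 4 highest, as *Dbp* did. Most of these genes thus did not follow that division.

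Of 18 other genes known for a rhythm in liver 16 were tested and 2 were called, against 9.78% of all tested genes. *Lpin1*, a phosphatidate phosphatase, was lower in every KPF library (11.3, 23.0 and 5.96 CPM against 58.6, 70.4 and 30.7 CPM, log2 fold change -1.98, SE 0.52, adjusted p = 0.430 in edgeR's test), and *Cys1* was called higher (34.0, 44.5 and 11.7 CPM against 5.45, 6.75 and 12.7 CPM, log2 fold change 1.85, SE 0.52, adjusted p = 0.430 in edgeR's test). Both calls held in 14 of 14 alternatives. *Rgs16*, a regulator of G protein signalling, was at 4.28, 24.9 and 0.288 CPM in KPF and 57.8, 40.5 and 38.7 CPM in WPF, without overlap and without a call, though it was called in 5 of 14 alternatives, 1 of them without KPF replicate 2 (log2 fold change -4.31), and *Klf15* had a log2 fold change of 0.45.

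Genes that follow feeding and fasting were considered because food sets the liver clock. Of 12 tested, 2 were called, against 9.78% of all tested genes. *Igfbp1*, a fasting-induced binding protein of IGF, was lower in KPF (13.5, 8.40 and 17.1 CPM against 80.7, 122 and 12.6 CPM, log2 fold change -2.46, SE 0.73, adjusted p = 0.430 in edgeR's test), with WPF replicate 4 at the level of KPF. *G6pc1*, which releases glucose, showed the same high pair, WPF replicates 2 and 3 at 112 and 328 CPM. KPF replicate 3 came next at 55.2 CPM. The other 3 libraries, the same 3 that were high in *Dbp*, had 4.51 to 13.1 CPM. *G6pc1* was not called, though it was without a filter, without KPF replicate 3, without WPF replicate 4 and with the replicate block. *Pck1*, an enzyme of gluconeogenesis, was called higher in KPF (266, 1721 and 322 CPM against 198, 129 and 314 CPM, log2 fold change 1.85, SE 0.75, adjusted p = 0.453 in edgeR's test), in 8 of 14 alternatives and not with library totals, either limma fit or without KPF replicate 2, WPF replicate 2 or WPF replicate 3, and *Cpt1a*, of fatty acid oxidation, had 0.57 without a call. What the state of feeding contributed to the levels of the clock output genes was not tested.

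Of 9 genes that follow body temperature, whose daily course also reaches the liver, 7 were tested and 2 heat shock genes were called higher in KPF: *Hsph1* (37.0, 32.2 and 27.9 CPM against 12, 25.6 and 8.02 CPM, log2 fold change 1.09) and *Hsp90aa1* (214, 48.9 and 173 CPM against 55.9, 82.8 and 48.4 CPM, log2 fold change 1.22), in 9 and 5 of 14 alternatives. Over all tested genes 9.78% were called, 5.8% higher in KPF. *Hspb1* had a log2 fold change of 1.26 that was -0.41 without KPF replicate 2, where it stood at 28.9 CPM, and the cold-induced *Cirbp* and *Rbm3* had -0.47 (0.18 without WPF replicate 4) and -0.41, without calls. None of the 8 genes known to respond to glucocorticoids was called by edgeR's test (smallest unadjusted p = 0.073), though *Zbtb16* was in 6 of 14 alternatives. *Fkbp5* and *Tsc22d3* had the highest log2 fold changes there, 0.54 and 0.47, and *Mt2* and *Zbtb16* the lowest, -1.09 (0.24 without WPF replicate 4) and -0.78. Of the other marker lists, 2 of 5 cholangiocyte, 1 of 5 lymphocyte and 3 of 4 erythroid genes could be tested and gave no calls. *Fabp4* was the 1 of 4 adipose markers that could be tested and was called higher, with a summed level of 8.65 to 40.1 CPM in KPF and 6.44 to 12.5 CPM in WPF.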
